A study of Sus scrofa with 6 samples.

Results

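The spliceosomal small nuclear RNAs (snRNAs) U1, U2, U4, U5 and U6 were followed in small RNA from the duodenum of piglets. Each count in these lists belongs to a stretch of 201 bases of the pig genome, called a window here. A window was taken as a member when it lay outside the mitochondrial genome and matched a human snRNA at 90% identity or more over at least 25 bases, with the match reaching past base 95 of the window. The best match named the snRNA. This gave 476 windows of 37784 in the 6 libraries, 83 of U1, 255 of U2, 19 of U4, 24 of U5 and 95 of U6. The condition on base 95 left out 0 matches. Overlapping windows were merged into 160 copies, 15 of U1, 85 of U2, 4 of U4, 8 of U5 and 48 of U6.

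The study compared Sutai pigs, a breed kept under shared conditions, that were sensitive or resistant to enterotoxigenic Escherichia coli with F18 fimbriae. The groups were genotypes at the M307 site of FUT1, a fucosyltransferase gene. The AA genotype marks resistant animals (piglets 524 and 2129) and the GG genotype sensitive ones (piglets 512, 2134 and 2383). All were 28 days old, no agent was given per the labels, and the genotypes are natural alleles. The labels give 2 full-sib pairs of opposite genotype, 524 with 512 and 2129 with 2134. Sequencing of the AA sib of piglet 2383 failed, as the labels say, and that animal was not analysed here. Piglet 512 has 2 libraries, titled rep1 and rep2 and called run 1 and run 2 here. They were summed to 1 animal, so that n was 2 AA and 3 GG. Whole duodenal tissue was used.

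U1, U2, U4, U5 and U6 are the RNA cores of the particles that remove introns from pre-mRNA. U1 pairs with the 5′ splice site and U2 with the branch point. U4 holds U6 inactive until the spliceosome is activated, U5 contacts the exons at the splice sites, and U6 forms the catalytic centre with U2. U1, U2, U4 and U5 are made by RNA polymerase II and carry a ring of Sm proteins on a short uridine-rich site, whereas U6 is made by RNA polymerase III, ends in a run of uridines and binds Lsm proteins. Mammalian genomes hold many copies of each, a few of them active genes and most of them pseudogenes.

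Total counts ranged from 42354 in piglet 2383 and 56334 in piglet 524 to 127075 in piglet 2129 and 192861 in piglet 2134, with 96244 and 89996 in the runs of piglet 512. The lowest count listed was 5 in every library, so a feature that is not listed had fewer than 5 counts or was left out for a reason that is not given. Piglets 2134 and 2383, both GG, stood apart by a mitochondrial share of 1.66% and 1.97% of the counts, against 8.16% to 9.35% in the other 4 libraries. Of the miRNAs of intestinal epithelium searched for, miR-215-5p was listed in 6 of 6 libraries with 24 to 52 counts, and miR-192-5p and miR-194-5p were found in none. The miRNAs of liver, pancreas and muscle were found in none. Of the leukocyte miRNAs, miR-142-5p was listed in 6 of 6 libraries with 7 to 23 counts. The leukocyte miR-150-5p was found in none, and miR-223-3p only in piglet 2129, with 5 counts. The erythroid miR-451a had 5 to 9 counts and was not listed in piglets 524 and 2383. Of the stroma miRNAs, miR-199a-5p had 5 to 10 counts and was not listed in piglet 2134. The stroma miRNAs miR-143-3p and miR-145-5p were found in none.

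Positions are described below in relation to the ends of the RNAs. The last 55 bases of matched RNA and the 24 genomic bases after them are therefore given for the leading copies of U1, U4, U5 and U6. A U1 copy on chromosome 7 with lower counts is added. The sequences are shown further down in this paragraph. These sequences are read 5′ to 3′ on the strand of the RNA from the deposited windows, whose genome build is not given in the sources used here. The U1 copies lie at chr12:32871113-32871191 and chr7:70943413-70943491, both on the minus strand. A further copy on the plus strand, at chr12:33090950-33091028, has the same letters as the first over the whole stretch shown. The U4 copies lie at chr14:40426382-40426460 and chr14:40427130-40427208, the U5 copies at chr1:170466084-170466162 and chr1:170474440-170474518, and the U6 copy at chr11:75145010-75145088, all on the minus strand. Capitals mark the motif AATTTNT, the core of the Sm site, in U1, U4 and U5, and the closing run of T in U6.
U1 chromosome 12: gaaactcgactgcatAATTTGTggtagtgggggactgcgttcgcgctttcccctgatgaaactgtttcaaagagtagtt
U1 chromosome 7: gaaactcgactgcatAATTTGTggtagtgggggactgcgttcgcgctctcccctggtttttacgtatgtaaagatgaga
U4 first copy: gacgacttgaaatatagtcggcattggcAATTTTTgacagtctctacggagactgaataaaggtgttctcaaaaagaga
U4 second copy: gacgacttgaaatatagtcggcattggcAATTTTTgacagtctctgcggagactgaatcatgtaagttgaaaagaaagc
U5 first copy: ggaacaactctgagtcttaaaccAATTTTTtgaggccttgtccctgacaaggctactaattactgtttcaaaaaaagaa
U5 second copy: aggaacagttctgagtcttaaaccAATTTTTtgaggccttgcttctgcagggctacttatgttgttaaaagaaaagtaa
U6 chromosome 11: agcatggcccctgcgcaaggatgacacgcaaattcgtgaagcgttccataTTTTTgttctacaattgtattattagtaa

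The U2 copies differed from these in that they held only the start of the RNA. Of them, 3 are shown with 18 genomic bases on either side, with the stretch that matches U2 in capitals. They lie at chr6:31511294-31511367, chr17:48109840-48109908 and chr7:101657499-101657574, all on the minus strand.
U2 chromosome 6: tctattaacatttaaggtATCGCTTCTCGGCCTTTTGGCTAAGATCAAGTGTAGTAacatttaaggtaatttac
U2 chromosome 17: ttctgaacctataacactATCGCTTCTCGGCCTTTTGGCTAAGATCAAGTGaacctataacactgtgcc
U2 chromosome 7: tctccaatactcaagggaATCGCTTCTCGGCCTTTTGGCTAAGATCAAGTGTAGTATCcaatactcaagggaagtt

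The AATTTNT motif was found on the RNA strand in 15 of 15 copies of U1, 2 of 4 of U4, 4 of 8 of U5, 19 of 85 of U2 and 4 of 48 of U6. It occurred on either strand in 17.4% of all 37783 windows of 201 bases. In U1, U4 and U5 the motif belongs to the RNA that the match rule looked for. Copies matched over that stretch tend to hold it by selection, so the share of all windows is no test of them. The U2 matches ended at base 95 or before. Bases 1 to 40 of U2, as shown for chromosome 7, do not hold the motif, and 75 of 85 U2 matches ended between bases 30 and 40. The stretch of U6 shown does not hold it either. Where the motif lay in each single copy of U2 and U6 was not examined. A second motif, TTNAAA, is part of the 3′ box, the element after snRNA genes of polymerase II that directs the formation of the RNA's 3′ end. In the 25 bases after the RNA it was found on the RNA strand in 5 of 14 copies of U1 that reached the end, 1 of 2 of U4, 2 of 5 of U5 and 2 of 36 of U6. A stretch of 25 bases from base 101 of all windows held it on one strand in 2.77% and on either strand in 4.31%. These are matches of letters, and the motifs do not overlap each other in the sequences shown.

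U1 had the highest count of the 5 snRNAs in 6 of 6 libraries. Because copies can share reads, the level of an snRNA in a library is the highest count of any of its windows. All windows have the same length, so these levels are per window and no RNA length enters. The snRNAs differ in their number of windows, and the U2 levels come from part copies only. U1 had 28 counts in piglet 524, 43 in piglet 2129, 39 and 52 in the runs of piglet 512, 35 in piglet 2134 and 23 in piglet 2383. U4 had 23, 21, 29, 21, 22 and 12 counts in the same order. U4 was next after U1 in 4 libraries, shared that place with U6 in the other run of piglet 512, and was below U6 by 1 count in piglet 2383.

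U6 had 12 counts in piglet 524, 16 in piglet 2129, 18 and 21 in the runs of piglet 512, 16 in piglet 2134 and 13 in piglet 2383. U5 had 8, 15, 17, 8, 18 and 8 counts, and U2 had 8, 10, 11, 7, 21 and 11. The order of U2, U5 and U6 changed between libraries, and U2 was lowest in 3 libraries, level with U5 in piglet 524, and above U5 in piglets 2134 and 2383. Within a piglet, the log2 ratio of U1 to U4 was 0.28 to 1.03, that of U1 to U6 was 0.82 to 1.43 and that of U2 to U5 was -0.58 to 0.46. U1 was therefore above U4 and U6 in 5 of 5 piglets, while U2 and U5 could not be ordered. The counts are small: 23 counts of U1 in piglet 2383 have a 95% exact Poisson interval of 14.6 to 34.5. It covers at most the counting error of a window fixed in advance. Each level is the highest of many windows, 83 for U1 and 255 for U2, and the interval leaves that choice out.

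**Figure D1:**
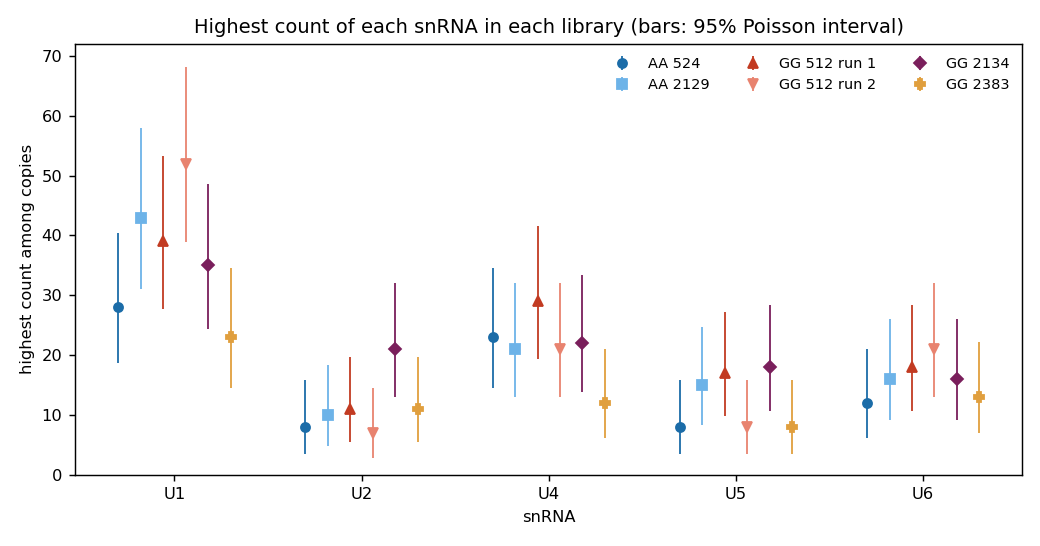
The highest count among copies (vertical axis) of each snRNA (horizontal axis) is shown for the 6 libraries, with bars for the 95% exact Poisson interval. The bars leave out the choice of the highest window. U1 lies highest in every library, from 23 to 52 counts, and the intervals of U2, U5 and U6 overlap.

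None of the 5 snRNAs differed between the genotypes beyond the spread of the piglets. The counts were scaled by TMM (trimmed mean of M values) and tested with limma on log2(scaled count + 1) together with all other features. With an adjusted p under 0.05 as the threshold, limma called 0 of 2718 features (0%), and 239 (8.79%) had an unadjusted p under 0.05. All 5 snRNAs overlapped between the groups. Of all features, every GG piglet was above both AA piglets in 21.9% and below both in 13.4%. In whole tissue, fewer cells of a type and less RNA per cell cannot be told apart.

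U1, which recognises 5′ splice sites, had scaled counts of 36.8 in piglet 524 and 41.5 in piglet 2129, and of 51.5, 31.2 and 35.9 in the GG piglets 512, 2134 and 2383. The GG piglets lay on both sides of the AA piglets. The log2 difference (GG minus AA) was -0.01 with a standard error of 0.317 and a 95% interval of -0.78 to 0.75 (limma adjusted p = 0.986). It was 0.48 in the sibs 524 and 512 and -0.40 in the sibs 2129 and 2134.

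U2, the branch point snRNA, had scaled counts of 10.5 in piglet 524 and 9.65 in piglet 2129, and of 10.2, 18.7 and 17.2 in the GG piglets 512, 2134 and 2383. Piglets 2134 and 2383 were high, and piglet 512 lay between the AA piglets. The value of piglet 2134 rests on 1 window of a chromosome 4 copy, with 21 counts, and the next highest U2 count there was 12. With the single copy of highest mean, on chromosome 6, the log2 difference was 0.35. The AA mean was 10.1 ± 0.603 (SD, n = 2). The GG mean was 15.4 ± 4.55 (SD, n = 3). The log2 difference was 0.52, with a standard error of 0.417 and a 95% interval of -0.49 to 1.53 (limma adjusted p = 0.590). The 2 high piglets are those with the low mitochondrial share, and without them the difference between piglet 512 and the AA piglets was 0.02 (1 animal against 2, no test). The sib differences were -0.04 for 524 and 512 and 0.89 for 2129 and 2134. The part of the mitochondrial share in these values was not tested.

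U4, the partner of U6, had scaled counts of 30.2 and 20.3 in the AA piglets 524 and 2129, and of 28.3, 19.6 and 18.7 in the GG piglets 512, 2134 and 2383. Piglets 524 and 512, which are sibs, were the high ones. The log2 difference was -0.17, with a standard error of 0.357 and a 95% interval of -1.03 to 0.69 (limma adjusted p = 0.804). Within the sib pairs it was -0.09 and -0.04.

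U5, which contacts the exons, had scaled counts of 10.5 and 14.5 in the AA piglets 524 and 2129, and of 14.2, 16.1 and 12.5 in the GG piglets 512, 2134 and 2383. Piglet 524 was lowest and piglet 2134 highest. The log2 difference was 0.19, with a standard error of 0.370 and a 95% interval of -0.71 to 1.08 (limma adjusted p = 0.796).

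U6, the catalytic snRNA, had scaled counts of 15.8 and 15.4 in the AA piglets 524 and 2129, and of 22.1, 14.3 and 20.3 in the GG piglets 512, 2134 and 2383. Piglet 2134 lay below both AA piglets and the other GG piglets above them. The log2 difference was 0.24, with a standard error of 0.352 and a 95% interval of -0.61 to 1.09 (limma adjusted p = 0.744). The highest counts in piglets 2134 and 2383 came from part copies that do not reach the 3′ end of U6. With the single copy of highest mean, on chromosome 11, the difference was -0.00912.

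Of the 5 differences, 3 were above 0 and 2 below, against 58.5% above and 41.5% below among all features. The median was 0.19 for the 5 snRNAs and 0.21 for all features. With totals in place of TMM the median of all features was 0.07, so differences of this size depend on the scaling. The intervals leave room for differences of over 1.5-fold in either direction for U1, U4, U5 and U6. Without piglets 2134 and 2383, the difference between piglet 512 and the AA piglets was 0.39 for U1, 0.19 for U4, 0.18 for U5 and 0.48 for U6, so that U1 and U4 turned from below 0 to above it. The spread over the 5 piglets was smallest for U5, with a coefficient of variation of 15.6%, and highest for U2, with 32.8%.

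**Figure D2:**
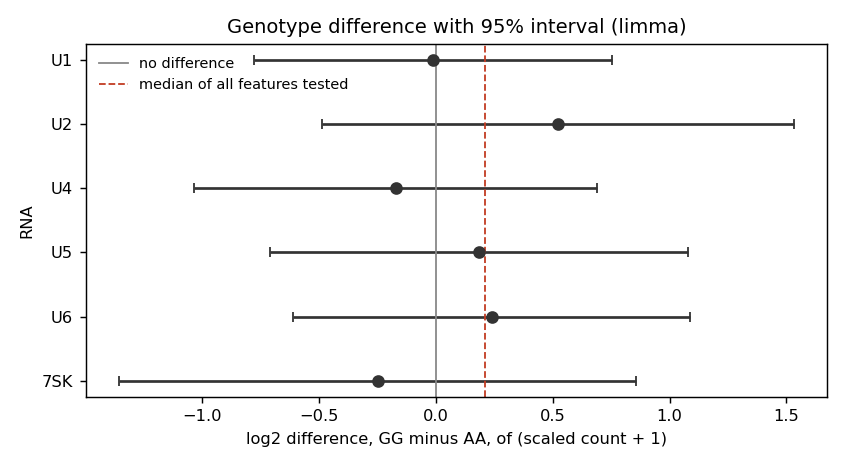
The log2 difference between GG and AA piglets (horizontal axis, of scaled count + 1) is shown for the 5 snRNAs and 7SK, with the 95% interval from limma. All 6 intervals include 0.

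The levels of the snRNAs were compared with each other within piglets, where scaling has no part. They come from unlike pieces and numbers of windows. U2 had 255 windows, all from part copies, while U4 had 19 windows and 2 whole copies. The U6 levels of piglets 2134 and 2383 also came from part copies. These are thus ratios of window counts and not of amounts of whole RNAs. Of the 10 pairs, U2 to U4 differed most, with a log2 ratio of -1.52 and -1.07 in the AA piglets 524 and 2129, and of -1.47, -0.07 and -0.13 in the GG piglets 512, 2134 and 2383. Piglet 512 again lay with the AA piglets. The value of piglet 2134 rests on the 1 window of U2 with 21 counts. The difference of the means was 0.74 (two-sided exact permutation p = 0.3, adjusted p = 0.8 over 10 pairs). The log2 ratio of U1 to U2 was 1.96 on average in AA and 1.38 in GG (exact permutation p = 0.4, adjusted p = 0.8). That of U4 to U6, which pair with each other in the particle, was 0.67 in AA and 0.23 in GG (exact permutation p = 0.4, adjusted p = 0.8). The other 7 pairs had exact p-values of 0.3 to 0.8, and 2 piglets against 3 cannot give a p under 0.1.

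The minor spliceosome, which removes a rare class of introns, uses U11, U12, U4atac and U6atac in place of U1, U2, U4 and U6. Under the same match rule, U11 and U4atac were listed in 0 libraries. U12 had 7 counts in piglet 524, 7 in piglet 2129, 7 and 9 in the runs of piglet 512 and 9 in piglet 2134, and was not listed in piglet 2383. It did not pass the filter for the test. U6atac had 11 counts in each AA piglet and was not listed in any of the 4 GG libraries. It entered the fit only through the AA piglets, where it is high, so no test of it is given.

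7SK, the polymerase III RNA that holds the elongation factor P-TEFb inactive, had 14 counts in piglet 524, 40 in piglet 2129, 18 and 22 in the runs of piglet 512, 35 in piglet 2134 and 10 in piglet 2383. Its log2 difference was -0.25 with a standard error of 0.458 (limma adjusted p = 0.778). Of the 5 RNAs of this list, only U6atac and 7SK passed the filter on low counts, and 7SK was not called.

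The copies with the highest counts are given here for each snRNA. Because copies can share reads, their counts do not show which loci the RNAs came from. U1 had 7 copies that matched all 164 bases at 95% identity or more, all in a stretch of chromosome 12 between bases 32871030 and 32975020. The copy at chr12:32871030-32871310 had 28, 43, 38, 52, 35 and 22 counts in the order of the libraries above, and that at chr12:32974742-32975020 had 28, 33, 39, 47, 31 and 23. The next, at chr12:32887999-32888301 and chr12:32894115-32894395, had 19 to 48 counts. The other whole copies, starting at 32889058, 32895151 and 32962164, had the same counts as each other, 21, 32, 35, 45, 25 and 19. Copies with equal counts are uncertain as single loci. On chromosome 7, the copies starting at 70943330 and 70926273, which matched bases 22 to 164 at 94.41% and 93.01%, had 10 to 27 and 7 to 22 counts.

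U4 had 2 whole copies, both on chromosome 14, at 40426294 to 40426612 and 40427047 to 40427360, each 98.61% identical over bases 1 to 144. The former had the counts given above for U4, and the latter 15, 12, 15, 18, 20 and 8. Its other 2 copies held only the first 66 and 68 bases and were listed in piglet 2134 alone, with 7 and 5 counts. U5 had 1 whole copy past 95% identity, at chr1:170466003-170466284. It gave the highest count in 4 libraries and shared it with another copy in piglet 524 and in a run of piglet 512, at 8 counts each. The neighbour at chr1:170474360-170474612 had 10, 9, 8, 14 and 5 counts in all libraries but that of piglet 524, where it was not listed. A copy at chr6:49025393-49025645 had 5 to 9 counts in the same 5 libraries, and a part copy at chr17:56263474-56263683, of bases 6 to 49, had 5 to 8 in 4 libraries.

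U6 was more scattered, with 48 copies on 17 chromosomes and 15 that matched the whole RNA at 95% identity or more. The copy with the highest mean was chr11:75144930-75145130, identical to U6 from base 12 to its end, with 12, 16, 18, 21, 15 and 8 counts. It led in 4 libraries, and part copies that do not reach the 3′ end led in piglets 2134 and 2383. The whole copies at chr6:64822278-64822545, chr1:172987988-172988253 and chrX:55243236-55243502 were identical to U6 and had 5 to 18 counts in 6 of 6 libraries, as did the copy at chr4:107946555-107946822 with 6 to 9. The other 11 whole copies were listed in 1 to 4 libraries, with 5 to 12 counts where listed.

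U2 had 85 copies on 19 chromosomes and 0 that held the whole RNA. The match started at base 1 in 84 of 85 and ended between bases 30 and 40 in 75 of 85, with 26 copies ending at base 35 and 20 at base 36. The copies with the highest mean, at chr6:31511207-31511431, chr4:131712682-131712918, chr7:101657416-101657638 and chr14:17571263-17571485, had 5 to 12 counts apart from 1 value. That value, 21 counts in piglet 2134, came from the chromosome 4 copy, which matched 61 bases and had 6 or 7 counts in each of the other 5 libraries. The next highest count of U2 in piglet 2134 was 12.

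Short direct repeats flanked most U2 copies. In the U2 sequences shown, the letters just before the capitals return just after them, in part overlapping the last capitals. Examples are acatttaaggt on chromosome 6 and aacctataacact on chromosome 17. Of 84 U2 copies that lay whole in a window and held part of the RNA, 69 (82.1%) had a direct repeat of 8 bases or more around the match, with a median of 15 and a longest of 21 bases. The part copies of the others had it in 2 of 2 for U4, 2 of 3 for U5 and 4 of 7 for U6. Among the U6 part copies, those starting at chr1:54278281, chr9:7177577 and chrX:44715362 had repeats of 16, 8 and 13 bases that were runs of A after at most a few T. Copies that ran to the end of the RNA had it in 0 of 2 for U4, 0 of 3 for U5 and 1 of 15 for U6. The repeat of that U6 copy, atattttt, has the letters of the RNA's own closing bases, which a repeat was allowed to overlap. The U6 shares are thus weak as a contrast, and no rate for other sequences is given here. Direct repeats of this kind are known from sequences inserted by retroposition, and how these copies arose was not tested.

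**Figure D3:**
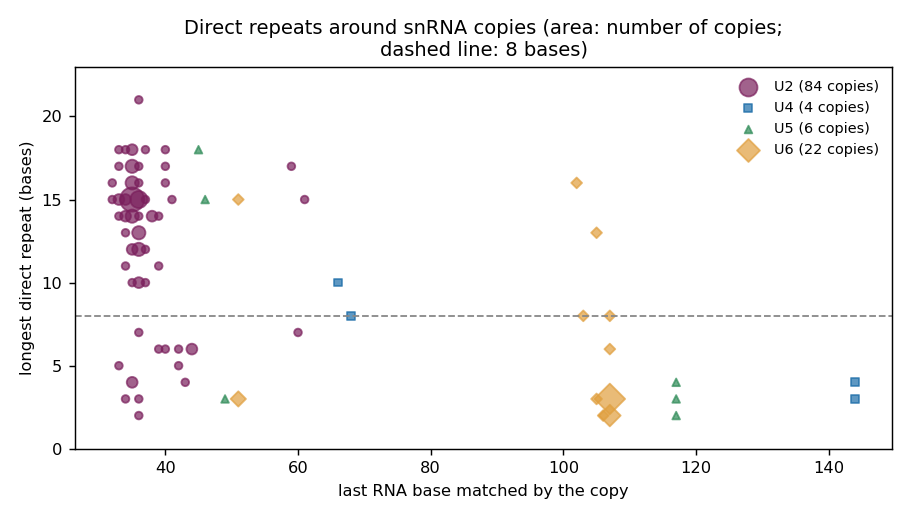
Each mark is a position shared by 1 or more snRNA copies, with the last RNA base of the match on the horizontal axis and the longest direct repeat around it, in bases, on the vertical axis. The U2 copies gather at bases 32 to 44 with repeats of up to 21 bases, and the U4 and U5 copies that run to the end have repeats of 2 to 4 bases.

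The strand of the copies was uneven. Of the 476 windows, 459 held the snRNA on the minus strand and 17 on the plus strand, and all 255 U2 windows were on the minus strand. The same held for other RNAs, with 41 of 41 windows of U12, U6atac and 7SK and 18 of 18 windows of the marker miRNAs on the minus strand. Whether the lists cover RNAs from the plus strand in full was not tested, which bears on U11, U4atac and the miRNAs that were not found. The U1 copies at chr4:103384310-103384529 and chr12:33090859-33091078 on the plus strand were identical to U1 over bases 19 to 164. They had 8, 11, 9, 10, 5 and 0 counts and 5, 8, 8, 9, 5 and 0 counts, where 0 stands for not listed, and lay below the whole minus-strand copies in 6 of 6 libraries. This sets unlike positions side by side. The plus-strand windows were centred on RNA bases 119 to 138, and the highest minus-strand window of each library on bases 167 to 170. Minus-strand U1 windows centred on bases 91 to 122 had at most 8, 11, 11, 10, 17 and 7 counts.

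Positions within the RNA were read from the base at the window's centre, base 101, which on the minus strand faces the 3′ side of the RNA. Where in a window the counted reads lie is not given, so these are positions of windows and not of reads. Inner windows can hold the whole RNA, as some of U1 do. Windows centred within 15 bases of the RNA's last base or beyond it are called 3′ end windows, and the others inner windows, a division made after the counts had been seen. In 3′ end windows the RNA's last base lay a few bases past the centre, at a median window base of 106 for U1, 107.5 for U4, 105 for U5 and 104 for U6. U2 had inner windows only.

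U1 had its highest counts in 3′ end windows in 6 of 6 libraries. The inner windows, centred on bases 91 to 122, had 8, 11, 11, 10, 17 and 7 counts as the highest of each library, against 23 to 52 at the end. The 3′ end windows made up 76.5% ± 5.44 (SD, n = 5) of the sum of both highest counts.

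U4 changed its leading zone between libraries. Its 3′ end had 23 counts in piglet 524, 21 in piglet 2129, 29 and 21 in the runs of piglet 512, 16 in piglet 2134 and 8 in piglet 2383. Its inner windows had 7, 7, 6, 13, 22 and 12 counts. The inner windows were lower than the 3′ end in the first 4 libraries and higher in piglets 2134 and 2383, with inner to 3′ end ratios of 0.304, 0.333, 0.207, 0.619, 1.38 and 1.5. The leading inner window was centred on base 93 in piglet 2134 and on base 120 in piglet 2383. With a 3′ end zone of 30 bases, the latter window counts as 3′ end, and piglet 2383 then had 12 counts at the end and 8 in inner windows, so that its order turned. The share of the 3′ end was 61.2% ± 18.5 (SD, n = 5).

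U5 had 6, 15, 17, 8, 5 and 6 counts at its 3′ end and 8, 7, 11, 8, 18 and 8 in inner windows. The inner windows led in piglets 524, 2134 and 2383, by a ratio of 3.6 in piglet 2134, where the leading window was centred on base 84. U6 had 12, 16, 18, 21, 15 and 8 counts at its 3′ end and 9, 14, 7, 9, 16 and 13 in inner windows. The highest inner count of U6 came in every library from part copies that do not reach its end, so these values compare different copies. Among copies that reach the end, the inner windows had 5, 9, 5, 7, 6 and 8 counts, below the 3′ end in 5 libraries and level with it in piglet 2383. Among all copies, the 3′ end share was 46.5% ± 17.4 for U5 and 53.6% ± 12.04 for U6 (SD, n = 5).

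For U4 and U5 the inner windows thus led in piglets 2134 and 2383, the GG piglets with the low mitochondrial share, and for U5 in piglet 524 too. Copies that reach the end gave the same highest inner counts of U4 and U5. For U4 the lead in piglet 2383 rests on the width of the zone. Piglet 512, also GG, had the 3′ end ahead in both runs for U4. The genotype is shared by all 3 animals and the mitochondrial share by 2, and the part of either in the position was not tested.

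**Figure D4:**
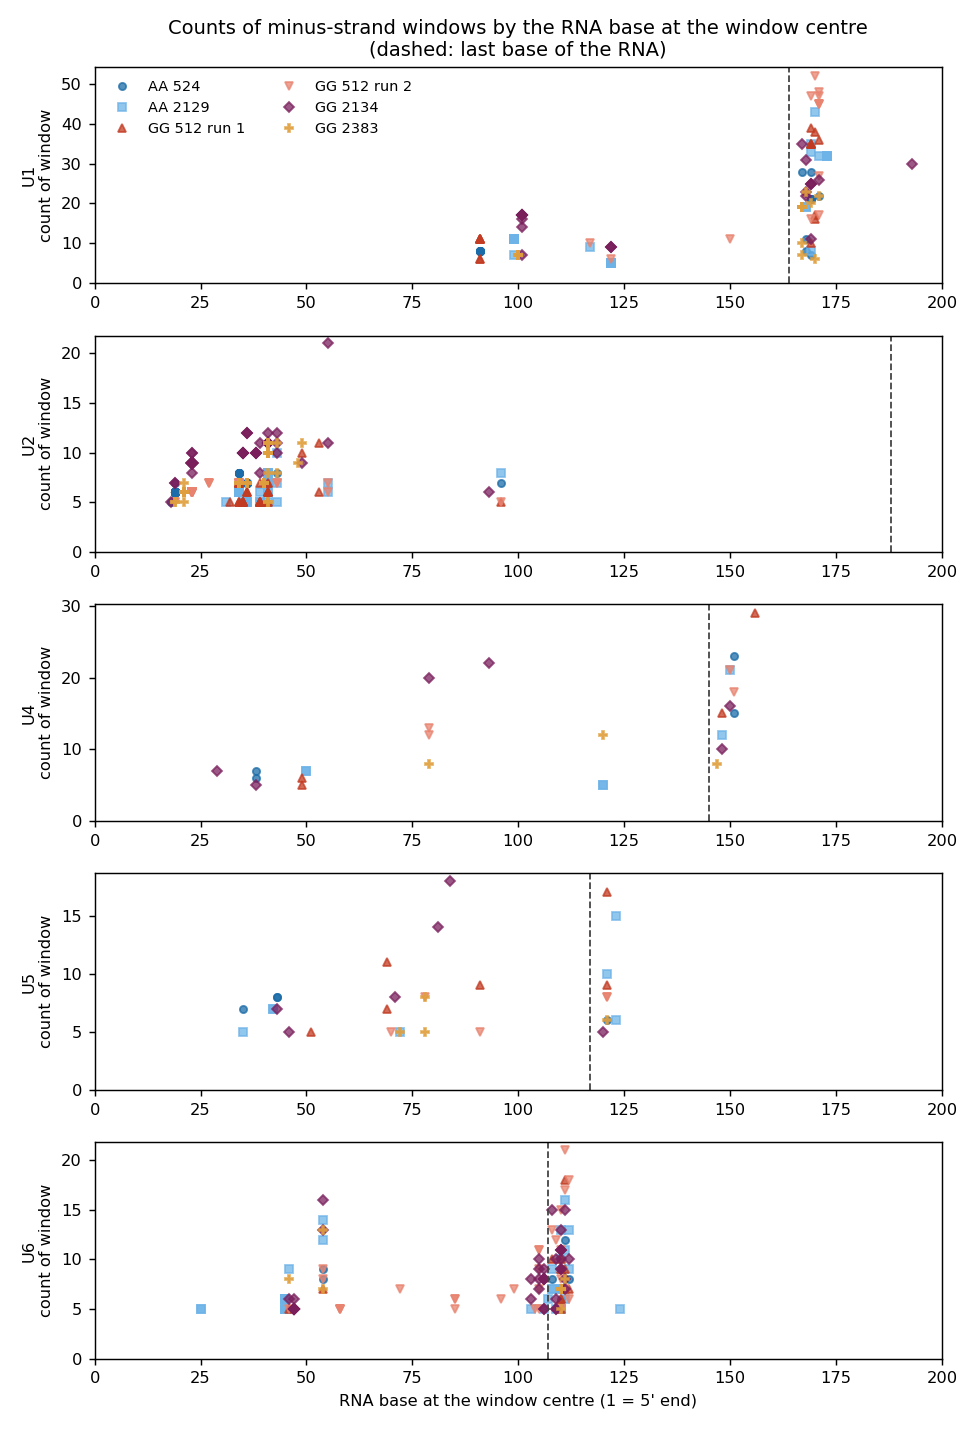
Each mark is a window on the minus strand in 1 library, with the RNA base at its centre on the horizontal axis and its count on the vertical axis, in a panel for each snRNA (dashed line, last RNA base). U1 windows stand highest just past the last base, with up to 52 counts, U2 windows lie within the first 96 bases, and the highest U4 and U5 marks of piglet 2134 lie at bases 93 and 84.

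**Figure D5:**
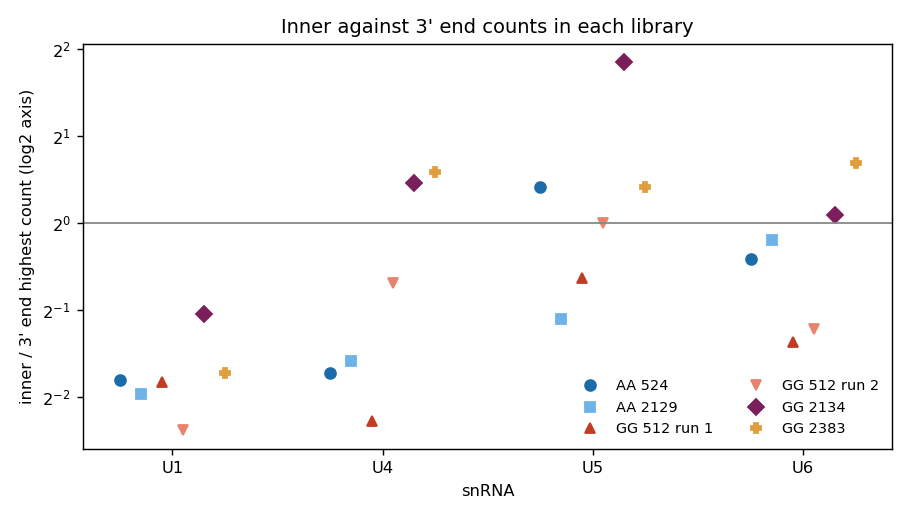
The ratio of the highest inner count to the highest 3′ end count (vertical log2 axis) is shown for 4 snRNAs in the 6 libraries. For U4, piglets 2134 and 2383 lie at 1.38 and 1.5 and the other libraries at 0.207 to 0.619, and for U1 all libraries lie below 1. The inner counts of U6 come from part copies that do not reach its end.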

How the data were processed

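Small RNA of the duodenum of 5 piglets was sequenced in 6 libraries. The authors deposited lists of windows with a whole-number count in each header, per the file headers; this other kind of record has no strand, and no source used here names the aligner, the filters or the genome build. Sequences repeated in several windows had equal counts in 1814 of 1824 cases, so copies can share reads; the counting rule is not stated.

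BLAST 2.17.0 (blastn, word size 11) searched the windows for snRNA sequences in their human form, written from memory and not checked against a database. The members, lists and markers were chosen with earlier results of these data known. Coordinates are those of the files. For every snRNA and library the highest window count was taken, and for other merged regions the sum. The planned count models were not run, because the lists leave out counts under 5 and are not a table of counts. Instead limma 3.58.1 (R 4.3.3) with a mean-variance trend was fitted on log2(scaled count + 1), with Benjamini-Hochberg adjustment over 2718 of 24509 features with at least 10 counts in at least 2 piglets. Unlisted features were given 2 counts. TMM trimmed 30% of ratios and 5% of abundances, giving size factors from 0.640 (piglet 2383) to 1.77 (piglet 512, 2 runs). The fit was tested on simulated data. Ratios were tested by exact permutation over 10 splits. Direct repeats were identical stretches at both ends of a match, the latter allowed to overlap its last bases.

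The labels pair 524 with 512 and 2129 with 2134 as full sibs. Deviations from the group means correlated at 0.06 and 0.32 in these pairs, over 2718 features. Alternatives covered scaling, unlisted values, pseudocount, filter, runs, match rules, sums in place of the highest count, each piglet left out and the sib block. All 5 snRNAs were named, with at most 4 copies each by mean scaled count and those that match the whole RNA at 95% identity. One U6 copy that this rule names is not reported here. Python 3.11.15 was used.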

Additional observations from a re-analysis of the deposited data

How the results depend on the processing

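No snRNA passed the threshold under any of 20 alternatives for each (lowest limma adjusted p = 0.521), and of the 80 values that the alternative could move, 69 kept their direction. In 20 others the value was identical by construction. U2 stayed above 0, from 0.32 to 0.79. The log2 difference of U1 became 0.0532 with run 2 of piglet 512 alone, 0.0457 with sums over distinct window sequences and 0.0393 in the fit that blocks on sib pairs, and ranged from -0.224 to 0.121 without 1 piglet. That of U4 ranged from -0.443 to 0.0157 and that of U5 from -0.117 to 0.404 without 1 piglet. U5 was -0.0129 with totals that leave out mitochondrial windows and -0.00861 with run 2 alone, and U6 was -0.00912 with the single copy of highest mean. The sib block changed no call.

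Limma called 0 of 2718 features, and 47 with total counts, 43 with totals without mitochondrial windows, 90 without the filter and 0 to 4 without 1 piglet (2 without piglet 2129, 4 without piglet 2134). With median-of-ratios factors it called 0, with 210 at an unadjusted p under 0.05. Of 60 values of the ratios that an alternative could move, 53 kept their direction. Without 1 piglet, the difference ranged from -0.210 to 0.540 for U1 to U4, from -0.422 to 0.0304 for U1 to U5, from -0.0467 to 0.707 for U2 to U6, from -0.899 to 0.139 for U4 to U5, from -1.06 (without piglet 512) to -0.255 (without piglet 2134) for U1 to U2, from 0.497 (without 2134) to 1.20 (without 512) for U2 to U4, from -0.704 (without 2129) to -0.158 (without 524) for U4 to U6, from -0.368 to -0.148 for U1 to U6, from 0.0693 to 0.654 for U2 to U5 and from -0.332 to 0.194 for U5 to U6. The 3′ end share of U6 was 67.7% with sums. Where a value changed, the cause was not tested. Restricting to minus-strand copies and 3′ end zones of 5 or 30 bases were chosen after seeing the data and moved no mean share past the spread, though the zone of 30 bases turned the order for U4 in piglet 2383. The planned edgeR and DESeq2 fits were not run. Counts of 5 to 52 for the snRNAs limit the precision of all comparisons.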

Other observations

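The 2 runs of piglet 512 give the spread between libraries of 1 animal. Per total count, U1 was 1.43 times as high in run 2 as in run 1 (95% exact interval 0.923 to 2.22), U6 1.25 times (0.633 to 2.48), U4 0.774 times (0.420 to 1.41), U2 0.681 times (0.224 to 1.92) and U5 0.503 times (0.188 to 1.23). The exact binomial p was 0.0944 for U1 and 0.113 to 0.524 for the others, a comparison of these 2 libraries and of counting error only. The highest window was chosen in each run. For U1 it started at base 32974742 of chromosome 12 in run 1 and at 32871031 in run 2. The intervals and p-values leave this choice out.

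Over the 5 piglets, the snRNA most like U1 in log2 scaled counts was U6, with a Pearson r of 0.675, and the one most like U4 was U1, with 0.511. U2 and U5 were most like each other, with 0.305. U1 and U2 had the lowest value of the 10 pairs, -0.747. The scaling is shared by all features. Of 1468 regions listed in every library, those most like U1 were chr14:49722364-49722571 and chr14:49745935-49746142, both at 0.978. Those most like U2 were chrX:14501841-14502062 and chrX:31138497-31138697, at 0.992 and 0.976. For U4 they were chr6:20380159-20380368 and chr9:55867435-55867636, at 0.998 and 0.955. For U5 they were chr7:60785050-60785334 and chr2:122446334-122446535, both at 0.998, and for U6 chr2:1064287-1064492 and chr13:100669224-100669424, at 0.991 and 0.975. With 5 points and 1468 regions, values this high are a description only.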
